A study of Ovis aries with 18 samples.

Results

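Plasma miRNAs were followed in ewes kept on a high-fat diet and bled at weeks 7, 10 and 14 of the diet. The data are the 9 libraries whose titles carry the group OBESE, 3 from each week, of 18 libraries in the series. The animals were female Polish Longwool sheep, all ovariectomized and all carrying estradiol implants, so both diets share the removal of the ovaries and the steady estrogen supply. Of 12 ewes, 6 were assigned at random to the high-fat diet (OBESE) and 6 to a standard diet (CTRL), and the other 9 libraries are the CTRL group at the same weeks. RNA came from 200 µL of plasma per extraction and was turned into small RNA libraries with molecular identifiers. The series title places the diet within a study of leptin resistance in diet-induced obesity. Nothing in the labels ties a library to a single ewe or to a pool of ewes, and no library from before the diet was analysed here, so week 7 is the earliest point of the course. Neither ages nor body weights are stated. A p-value therefore speaks only of the spread among libraries, which may be technical.

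Circulating miRNAs are short RNAs that leave cells inside vesicles, bound to Argonaute proteins or on lipoproteins, and that resist degradation in plasma. Most plasma miRNA comes from blood cells and platelets, with smaller contributions from liver, fat, muscle and endothelium. Several miRNAs measured here act in pathways that respond to overfeeding, such as the miR-29 and miR-103/107 families in insulin signalling and let-7 in insulin receptor signalling.

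The OBESE libraries held between 488427 and 1171984 counts. An exact permutation test of the totals over the 9 libraries gave p = 0.15 for a difference among weeks. Without replicate 3 of week 10, the shallowest library of that week, the exact p was 0.0357. Of 364 features in the files, 168 had enough counts to be tested, of which 54 carry a miRNA name. The other 114 tested features carry only a running number and are called here "unnamed miRNA" with that number. The markers miR-451, miR-486, miR-144, miR-223, miR-126 and miR-122, which mark red cells, platelets, endothelium and liver, have no entry among the 107 named features. The blood-cell lists therefore rest on the few markers that have one: miR-16b, miR-25 and miR-106b for red cells, miR-191, miR-21 and miR-199a-3p for platelets, and miR-150 alone for lymphocytes. The mean log2 CPM (the count relative to the library's total, scaled with TMM factors, per 1e6 counts) of the red-cell list ranged from 12.01 to 12.39 at week 7, from 11.70 to 12.07 at week 10 and from 11.85 to 12.27 at week 14. That of the platelet list ranged from 11.36 to 11.48, from 11.34 to 11.44 and from 11.18 to 11.43. Both lists overlapped between every pair of weeks, and their part in the results below was not tested. In bulk plasma, fewer cells releasing a miRNA and less miRNA released per cell cannot be told apart.

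A few miRNAs made up most of the plasma pool on the high-fat diet. The 10 most abundant miRNAs took 89.2% of the counts on average over the 9 OBESE libraries. miR-16b, a miR-15/16 family member abundant in red blood cells, held 46.9 ± 4.07% of the counts at week 7, 44.5 ± 1.65% at week 10 and 47.0 ± 2.77% at week 14 (SD, n = 3 each). Its share ranged from 42.7% to 51.4% and the weeks overlapped (exact permutation test over 9 libraries, p = 0.543). Next came unnamed miRNA 2 and unnamed miRNA 1, with 12.6% and 11.6% of the counts on average, then let-7b with 4.52%, let-7g with 3.87% and miR-191 with 3.77%. The named let-7 miRNAs, which repress growth genes and components of insulin signalling, together held 13.2 ± 0.702% at week 7, 13.3 ± 2.16% at week 10 and 12.8 ± 0.584% at week 14. No difference in the summed share was detected among weeks (exact permutation test over 9 libraries, p = 0.85).

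Among the named miRNAs, miR-150 had the smallest p of any pair of weeks on the high-fat diet, for lower levels at week 14 than at week 10. miR-150 is abundant in mature lymphocytes, where it targets the transcription factor MYB. In replicates 1, 2 and 3 its level was 5558, 6721 and 8296 CPM at week 7, 9370, 26777 and 8649 CPM at week 10, and 2815, 3179 and 3445 CPM at week 14. Every week 10 library was above every week 7 library, and every week 14 library was below both earlier weeks. The means were 6858 ± 1374 CPM at week 7, 14932 ± 10265 CPM at week 10 and 3146 ± 317 CPM at week 14 (SD, n = 3). The spread at week 10 came from replicate 2, whose level was far above the other two.

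The log2 fold change of miR-150 from week 10 to week 14 was -2.25 (SE 0.58, 95% interval -3.47 to -1.02). In edgeR's quasi-likelihood test across all 18 libraries this gave an unadjusted p of 0.00123 and an adjusted p of 0.104 over the 168 features (Benjamini-Hochberg), so the difference did not pass the threshold of 0.05. Without replicate 2 of week 10 the log2 fold change was -1.52 and the adjusted p was 0.591. It passed in other fits. The adjusted p was 0.0118 in DESeq2, 0.000844 without a filter on low counts, 0.0263 in the 9 OBESE libraries alone, 0.00539 in those 9 with the replicate number as a block, and 0.0162 without the CTRL library of week 7, replicate 3. Over all settings it ranged from 0.000844 to 0.591. An exact permutation of the 9 libraries among the weeks gave p = 0.00357 for the log2 level of miR-150, the smallest that the 1680 assignments allow. Adjusted over the 13 library measures tested in this way it was 0.0464, which does not account for the 168 features among which miR-150 stands out.

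On the standard diet miR-150 was 2675, 2363 and 12151 CPM at week 7, 3657, 12943 and 8508 CPM at week 10, and 2529, 4026 and 2603 CPM at week 14. The CTRL libraries at week 14 lay in the same low range as the OBESE ones, while 1 of the 3 CTRL libraries at week 7 (12151 CPM) and 2 of the 3 at week 10 (12943 and 8508 CPM) lay above all of them. The log2 fold change from week 10 to week 14 was -1.46 (SE 0.57) in CTRL, with an unadjusted p of 0.0200. The difference between the diets in that change was -0.79 (SE 0.79, 95% interval -2.45 to 0.87) and did not pass the test (adjusted p = 0.992).

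**Figure D1:**
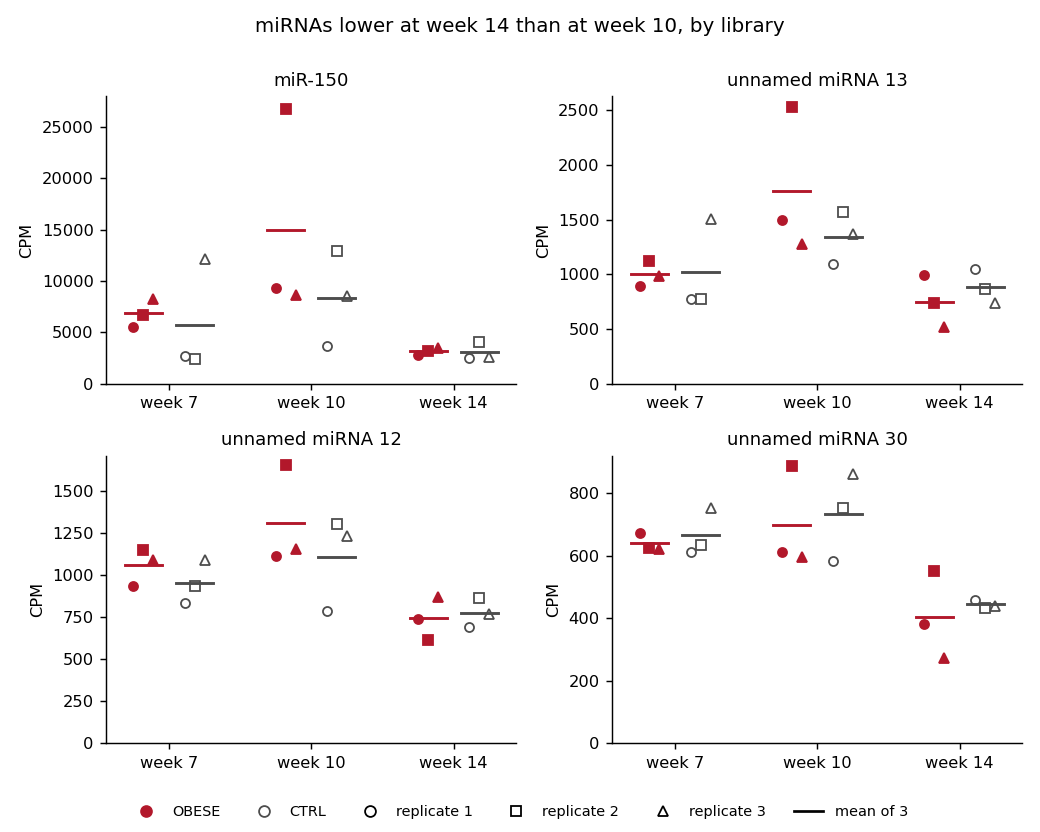
Level in CPM (vertical axis, linear, starting at 0) of miR-150 and unnamed miRNAs 13, 12 and 30 by week, with 1 point per library (filled red, OBESE; open grey, CTRL; circle, square and triangle for replicates 1, 2 and 3) and a line at the mean of 3. The 3 OBESE points of miR-150 at week 14, 2815 to 3445 CPM, sit below all 6 earlier OBESE points, and the square at week 10 stands alone at 26777 CPM.

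Across the whole plasma pool, week 14 against week 10 was the comparison with the most low p-values. No miRNA passed the adjusted threshold in edgeR (0 of 168, 0%), and 17 of 168 (10.1%) had an unadjusted p under 0.05, 5 higher and 12 lower at week 14. DESeq2, run without the filter on low counts, called 2, and limma-voom 0. The groups did not overlap for 26 of 168 (15.5%). With the replicate number as a block and the OBESE libraries alone, 3 miRNAs passed: miR-150, unnamed miRNA 13 and miR-3957-5p. The 95% interval of a log2 fold change reached a median of 0.92 to either side.

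Beside miR-150, 3 unnamed miRNAs led the list of lower levels at week 14. Unnamed miRNA 13 was 894, 1122 and 983 CPM at week 7, 1499, 2527 and 1274 CPM at week 10, and 990, 739 and 516 CPM at week 14. Week 10 was above both other weeks in every library, and week 14 overlapped week 7. Its log2 fold change from week 10 to week 14 was -1.24 (SE 0.32, adjusted p = 0.104), and it was -0.89 with an adjusted p of 0.591 without replicate 2 of week 10. DESeq2 called it, with an adjusted p of 0.0242.

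Unnamed miRNA 12 was 933, 1149 and 1087 CPM at week 7, 1111, 1653 and 1151 CPM at week 10, and 740, 615 and 868 CPM at week 14. Unnamed miRNA 30 was 673, 626 and 621 CPM, then 612, 889 and 595 CPM, then 383, 552 and 274 CPM. For both, all 3 libraries of week 14 were below all 6 earlier ones. The log2 fold changes from week 10 were -0.82 (SE 0.23, adjusted p = 0.142) and -0.79 (SE 0.25, adjusted p = 0.217), and neither passed.

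All 4 of these miRNAs also had a negative log2 fold change from week 10 to week 14 in CTRL. So did 88 of all 168. Of the 4, 3 had an unadjusted p under 0.05 there, as did 2.98% of all 168 (unnamed miRNA 13, at 0.0707, did not). After these values had been seen, the mean change over both diets was tested in the same fit. It gave 4 calls of 168 (2.38%): miR-150 fell by 1.85 on the log2 scale (SE 0.41), unnamed miRNA 13 by 0.92 (SE 0.22), unnamed miRNA 30 by 0.76 (SE 0.18) and unnamed miRNA 12 by 0.67 (SE 0.16), each with an adjusted p of 0.0316. None passed without TMM scaling or without the 2 CTRL libraries with low TMM factors, and single libraries left out gave from 0 to 4 calls. For miR-150 the adjusted p was between 0.0514 and 0.146 in 10 of those fits, and the highest came without the CTRL library of week 10, replicate 2. Since the comparison was chosen after the values were seen, it is a description of both diets and no independent support.

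Among the named miRNAs, miR-23a, a member of the miR-23/27/24 clusters active in endothelium and muscle, was 1060, 885 and 689 CPM at week 7, 1084, 1291 and 845 CPM at week 10, and 786, 661 and 495 CPM at week 14. Week 14 did not overlap week 10 and overlapped week 7. From week 10 to week 14 the log2 fold change was -0.73 (SE 0.26, adjusted p = 0.250). The platelet miRNA miR-191 had 36479, 54864 and 32462 CPM at week 10 and 27948, 37607 and 23284 CPM at week 14, a log2 fold change of -0.48 (adjusted p = 0.492), and the weeks overlapped. let-7f was 5974, 5816 and 7340 CPM at week 7, 4905, 5533 and 5805 CPM at week 10, and 7003, 7094 and 8113 CPM at week 14. It was the named miRNA with the smallest p among those higher at week 14, apart from the sparse miR-3957-5p, with a log2 fold change of 0.45 (SE 0.16, adjusted p = 0.250).

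Week 10 against week 7 gave no call in edgeR or limma-voom (0 of 168, 0%), and none in DESeq2, run without the filter on low counts. An unadjusted p under 0.05 was found for 7 of 168 (4.17%) in edgeR, 3 higher and 4 lower at week 10, against 8 in DESeq2 and 6 in limma-voom, and the smallest adjusted p was 0.897. The weeks did not overlap for 27 of 168 miRNAs (16.1%).

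Members of the miR-17/92 and paralog clusters, which promote cell proliferation, were among these. The first is miR-17-5p. It was 589, 576 and 611 CPM at week 7, 340, 370 and 400 CPM at week 10, and 422, 373 and 390 CPM at week 14. All 3 week 7 libraries were above all 6 later ones, and weeks 10 and 14 overlapped. The log2 fold change was -0.68 (SE 0.26) at week 10 and -0.58 (SE 0.26) at week 14, with adjusted p of 0.897 and 0.605. In CTRL the levels ranged from 458 to 1093 CPM with no separation of weeks. The diets differed in the change from week 7 to week 14 by -0.93 (SE 0.37, adjusted p = 0.410), which did not pass.

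Its relative miR-106b, from a paralog cluster and also a red-cell marker, was 189, 174 and 172 CPM at week 7, 108, 121 and 79.8 CPM at week 10, and 156, 208 and 86.4 CPM at week 14. Week 10 lay below week 7 in every library and week 14 spanned both. At week 10 the log2 fold change was -0.79 (SE 0.33, adjusted p = 0.897). The third tested member, miR-25, was at 1025 to 1519 CPM with a log2 fold change of 0.06. Of the 3 tested members, 2 were lower at week 10 with an unadjusted p under 0.05, beside 4 of all 168 in that direction.

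miR-29a, which targets insulin signalling and collagen transcripts, was 4107, 4133 and 3187 CPM at week 7, 6274, 5607 and 5110 CPM at week 10, and 5825, 4606 and 2985 CPM at week 14. Week 10 was above week 7 in every library, while week 14 spread over most of the range of both. From week 7 to week 10 the log2 fold change was 0.57 (SE 0.23, adjusted p = 0.897). miR-26b, a family linked to fat cell differentiation and insulin sensitivity, was 2598, 3446 and 3676 CPM at week 7, 1803, 1680 and 2849 CPM at week 10, and 2523, 2005 and 2301 CPM at week 14. Weeks 7 and 10 overlapped in 1 library, and the log2 fold change was -0.62 (SE 0.28, adjusted p = 0.897).

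Unnamed miRNA 27 rested on 1 library. It was 137, 3143 and 107 CPM at week 7 and between 76.8 and 142 CPM in the other 6 OBESE libraries. Its log2 fold change at week 10 was -3.28, and without replicate 2 of week 7 it was -0.07.

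**Figure D2:**
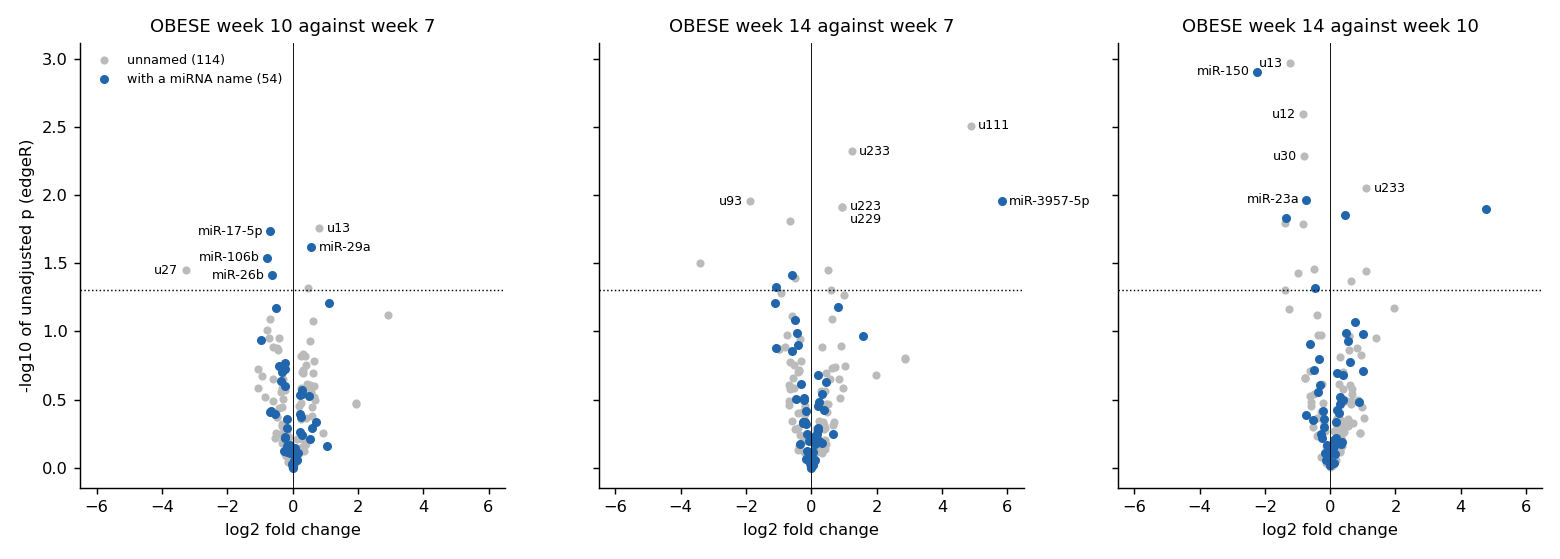
Log2 fold change (horizontal axis) against minus log10 of the unadjusted p from edgeR (vertical axis) for 168 miRNAs in each pair of OBESE weeks, with the 54 named ones in blue, the 114 unnamed ones in grey, a dotted line at an unadjusted p of 0.05, and the 6 smallest p-values labelled (u13 stands for unnamed miRNA 13). Points above the line number 7, 13 and 17 from left to right, and no point passed the adjusted threshold.

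Week 14 against week 7 spans the course measured here. No miRNA passed in edgeR or limma-voom (0 of 168, 0%), or in DESeq2, run without the filter on low counts. In edgeR 13 of 168 (7.74%) had an unadjusted p under 0.05, 7 higher and 6 lower. DESeq2 gave 15 over its larger set of features, and limma-voom 12. The 2 weeks did not overlap for 23 of 168 (13.7%). With the replicate number as a block, 22 had an unadjusted p under 0.05, and in the 9 OBESE libraries with the block miR-3957-5p passed.

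miR-3957-5p, a sheep miRNA of the imprinted DLK1-DIO3 region, was near the detection limit before week 14. Its raw counts were 1, 0 and 0 at week 7, 4, 0 and 0 at week 10, and 80, 10 and 3 at week 14. A count of 0 allows up to 4.55 and 4.29 CPM in the week 7 libraries where none was seen, against levels of 82.8, 16.2 and 5.76 CPM at week 14. In CPM all 3 week 14 libraries were above all 6 earlier ones. Replicate 3 of week 14 had only 3 counts, against 4 in replicate 1 of week 10, so these counts are too low to separate it. Replicate 1 held the highest value in each week, at week 7 by a single count. The adjusted p against week 7 was 0.341, and 0.0139 in the 9 OBESE libraries with the block. The CTRL libraries had counts of 52, 0 and 0 at week 14 and of 2 or fewer before, so on the standard diet 1 library carried the signal, also replicate 1.

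miR-485-5p, also of DLK1-DIO3, was 31.6, 36.4 and 57.2 CPM at week 7, 34.1, 43.0 and 54.1 CPM at week 10, and 64.1, 66.6 and 90.2 CPM at week 14. Week 14 was above both earlier weeks in every library, and weeks 7 and 10 overlapped. The log2 fold change from week 7 to week 14 was 0.81 with an unadjusted p of 0.0666, above the unadjusted threshold. In CTRL it went from 81.1, 101 and 55.6 CPM at week 7 to 38.3, 49.2 and 29.9 CPM at week 14. The difference between the diets in that change was 1.83 (SE 0.59, 95% interval 0.59 to 3.07), with an unadjusted p of 0.00636 and an adjusted p of 0.286.

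miR-30b, a low-abundance member of the miR-30 family, had its lowest levels at week 14. It was 34.2, 54.6 and 41.5 CPM at week 7, 58.6, 59.0 and 39.2 CPM at week 10, and 29.0, 19.5 and 11.5 CPM at week 14. Week 14 was below both earlier weeks in every library. The log2 fold change was -1.08 (SE 0.50, adjusted p = 0.605) against week 7 and -1.35 (SE 0.50, adjusted p = 0.250) against week 10. In CTRL the week 14 levels were 83.8, 25.2 and 67.0 CPM against 27.8, 15.7 and 37.1 CPM at week 7. The diets differed in the change from week 7 by -2.21 (SE 0.71, adjusted p = 0.286), which did not pass.

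**Figure D3:**
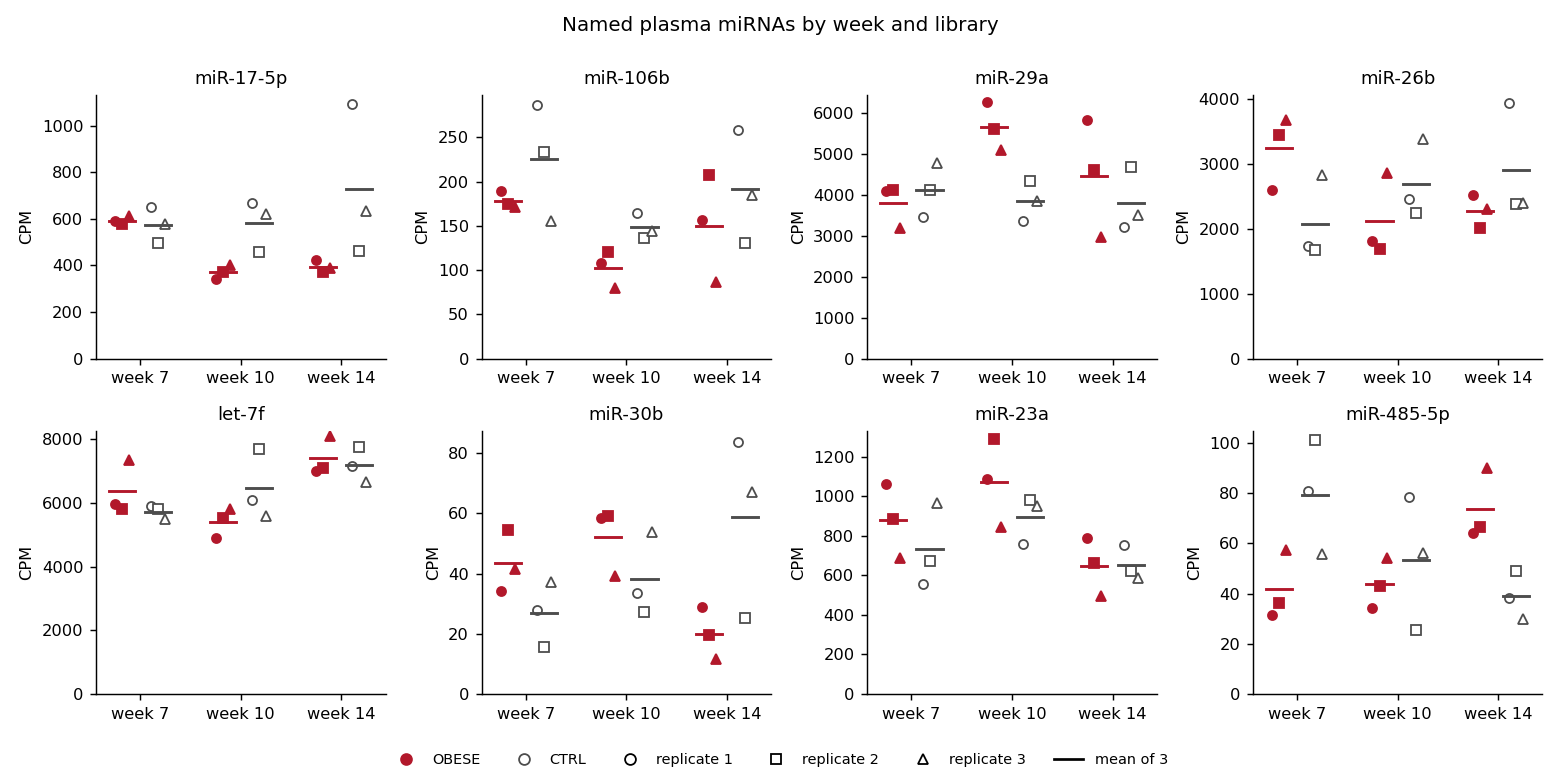
Level in CPM (vertical axes, linear, starting at 0) of 8 named miRNAs by week, with 1 point per library (filled red, OBESE; open grey, CTRL; circle, square and triangle for replicates 1, 2 and 3) and a line at the mean of 3. miR-17-5p holds its 3 OBESE points between 576 and 611 CPM at week 7 and between 340 and 422 CPM afterwards, while for miR-30b and miR-485-5p the OBESE and CTRL means cross between week 7 and week 14.

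Several unnamed miRNAs had their smallest p-values in the same comparison. Unnamed miRNA 111 had counts of 1, 0 and 0 at week 7, 2, 10 and 3 at week 10, and 13, 20 and 5 at week 14, which are 13.5, 32.5 and 9.60 CPM at week 14. The counts at week 7 and week 10 are too low to separate those weeks, since a count of 0 at week 7 allows up to 4.55 CPM. Week 14 lay above that limit in every library (adjusted p = 0.341 against week 7). Unnamed miRNA 233 was 48.7, 59.1 and 31.5 CPM at week 7, 68.2, 36.3 and 47.3 CPM at week 10, and 60.0, 156 and 115 CPM at week 14, a log2 fold change of 1.24 from week 7 (SE 0.38, adjusted p = 0.341), and week 14 overlapped week 10. Unnamed miRNA 93 had 22.4, 30.3 and 11.4 CPM at week 7 and 6.21, 3.25 and 7.68 CPM at week 14. In CPM, week 14 was lower in every library (log2 fold change -1.88, SE 0.66, adjusted p = 0.341). The raw counts were 17, 20 and 8 at week 7 and only 6, 2 and 4 at week 14. These are too low to separate replicate 3 of week 7 from week 14.

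Unnamed miRNA 223, at 139, 176 and 189 CPM at week 7 and 281, 302 and 388 CPM at week 14, had a log2 fold change of 0.94 (SE 0.34, adjusted p = 0.341). Unnamed miRNA 229 had the same counts to within 1 in every library, so the pair counts as a single observation and its reads may come from either copy.

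The joint test of any difference among the 3 OBESE weeks gave 0 calls of 168 (0%), and its smallest adjusted p was 0.255. An unadjusted p under 0.05 was found for 16 (9.52%). DESeq2, run without the filter on low counts, and limma-voom also gave 0 calls, with 17 and 13 under the unadjusted threshold. By mean level, 55 of 168 miRNAs were highest at week 7, 47 at week 10 and 66 at week 14. Complete separation of 1 week from both others was rarer. The largest class was week 14 below both others, with 7 of 168 (4.17%), among them miR-150 and miR-30b. In CPM, week 14 was above both for 3 (1.79%), among them miR-3957-5p and miR-485-5p. Week 10 was above both others for 4 (2.38%), miR-10b, miR-150 and unnamed miRNAs 7 and 13. It was below both for 6 (3.57%), let-7f, let-7i and 4 unnamed ones. Week 7 was above both others for 4 (2.38%), let-7g, miR-17-5p and unnamed miRNAs 16 and 62. It was below both for 3 (1.79%), all unnamed. Among them is unnamed miRNA 111, whose counts are too low to separate weeks 7 and 10.

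miRNA families were read member by member and have no test of their own. Of the 7 let-7 miRNAs, 5 had a negative log2 fold change from week 7 to week 10, beside 88 of all 168. With all 168 at a median of -0.02, that of let-7 was -0.18. That median was 0.05 without a filter on low counts and 0.02 without replicate 1 of week 10. At week 10, 3 of the 7 (let-7f, let-7g and let-7i) were lower than at week 7 in every library, beside 16 of all 168 (9.52%). let-7i, at 4549 to 5149 CPM at week 7 and 4543 to 5079 CPM at week 14, was at 3609 to 4467 CPM at week 10. let-7g was at 37906 to 41796 CPM at week 7 and 29598 to 37378 CPM at week 10. let-7a and let-7b had log2 fold changes of 0.07 at week 10, opposite in sign to the other 5, which include the abundant let-7g. For both, replicate 2 held the highest share of counts at week 10 (3.48% for let-7a and 6.28% for let-7b).

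The family of miR-10, miR-99 and miR-125 includes miR-10a and miR-10b, encoded within HOX clusters. Its 4 tested members all had positive log2 fold changes at week 10 and all had negative ones from week 10 to week 14. Over all 168, 80 were positive in the first comparison and 72 negative in the second. Both comparisons use the same week 10 libraries, so their signs are not independent. The medians of the 4 were 0.24 beside -0.02 for all 168, and -0.34 beside 0.09. miR-10b was at 396 to 576 CPM at week 7, 597 to 644 CPM at week 10 and 464 to 542 CPM at week 14, with week 10 above both. miR-125b, at 182 to 342 CPM at week 10 and 187 to 215 CPM at week 14, overlapped. None of the 4 had an unadjusted p under 0.05 in either comparison.

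In the miR-23/27/24 clusters, miR-23a and miR-23b (38.4 to 121 CPM over the 9 libraries) had log2 fold changes of -0.73 and -0.62 from week 10 to week 14, while miR-27a, processed from the same transcript as miR-23a, had 0.10 and stayed between 641 and 931 CPM in all 9 libraries. Of the 5 miR-30 family members, 4 had a negative log2 fold change from week 10 to week 14 (median -0.18), beside 72 of all 168 (median 0.09). Of these 5, miR-30b alone had an unadjusted p under 0.05, beside 17 of all 168 (10.1%). The abundant miR-30d ranged from 8344 to 13107 CPM over all weeks, with a log2 fold change of -0.18 from week 10 to week 14.

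Of 12 tested miRNAs with known roles in fat or insulin action, 10 had a positive log2 fold change from week 10 to week 14, beside 96 of all 168. The median of the 12 was 0.24, beside 0.09 for all 168. None of the 12 had an unadjusted p under 0.05 or separated the 2 weeks. From week 7 to week 10 they split 6 to 6, and miR-26b and miR-29a, in opposite directions, were the ones with an unadjusted p under 0.05 (2 of 12, beside 7 of all 168, or 4.17%). miR-103 and miR-107, which reduce insulin sensitivity in mouse liver and fat, were at 710 to 1313 and 461 to 886 CPM at week 7 and at 958 to 1371 and 750 to 1104 CPM at week 14. Their log2 fold changes over that span were 0.18 and 0.46, within the spread of the libraries. miR-143, a smooth muscle and adipocyte miRNA, was at 2408 to 4126 CPM at week 7, 1900 to 3444 CPM at week 10 and 2669 to 4040 CPM at week 14. Its log2 fold change from week 10 to week 14 was 0.50, and the weeks overlapped. No leukocyte marker other than miR-150 has a named feature, so its course had no companion here.

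**Figure D4:**
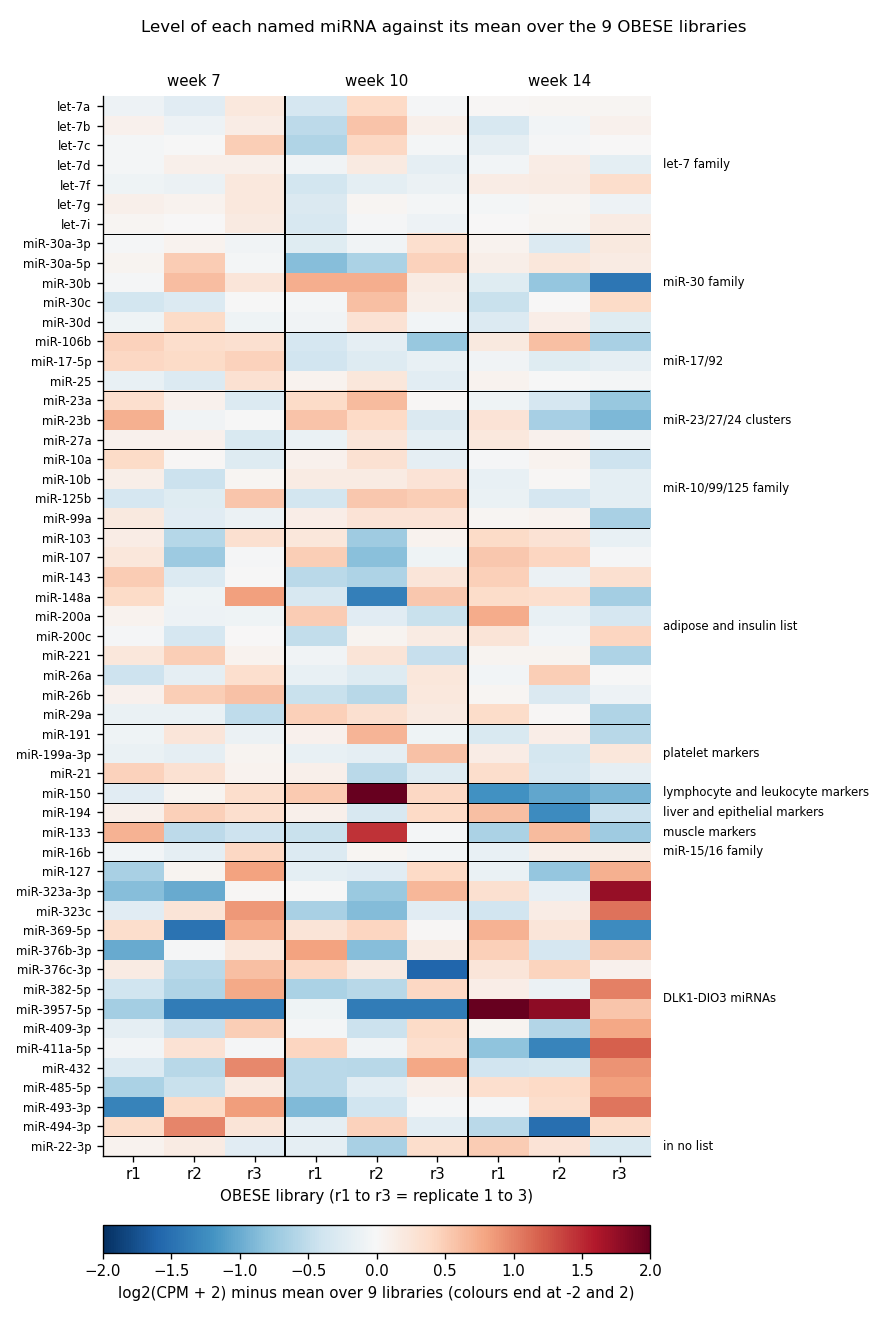
Log2(CPM + 2) of the 54 tested named miRNAs in the 9 OBESE libraries, each minus its own mean over the 9, with rows grouped by family or list (a miRNA in several lists is shown once) and columns by week and replicate; red is above and blue below the mean, and colours end at -2 and 2. The row of miR-150 is red at week 10 and blue at week 14, and in the DLK1-DIO3 rows replicate 3 is often red in every week.

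The miRNAs of the imprinted DLK1-DIO3 region are transcribed from the maternal chromosome. Of 58 in the files, 14 had enough counts to be tested. For 10 of these the replicate number held more of the spread than the week did, beside 99 of all 168. The median shares of the 14 were 40.2% against 16.8%, beside 35.4% against 25.03% for all 168. Any such grouping of the 9 libraries takes part of the spread even where it has no effect. miR-432 was 321, 265 and 761 CPM at week 7, 267, 265 and 665 CPM at week 10, and 298, 305 and 729 CPM at week 14. Replicate 3 was the highest library in each week by a wide margin. The replicate number held 97.7% of the sum of squares of its log2 CPM over the 9 libraries and the week 1.41%.

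miR-409-3p was 146, 120 and 235 CPM, then 161, 122 and 218 CPM, then 173, 110 and 286 CPM, with replicate 3 again highest each week. miR-382-5p was 635, 553 and 1425 CPM, then 542, 574 and 1121 CPM, then 924, 774 and 1689 CPM. Replicate 3 exceeded all other libraries of these miRNAs at every week. It was the highest library in all 3 weeks for 8 of the 14 (57.1%), beside 19 of all 168 (11.3%). The sources used here do not say whether replicate 3 is the same ewe at each week.

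Between the weeks themselves, 11 of the 14 DLK1-DIO3 miRNAs had a positive log2 fold change from week 10 to week 14, beside 96 of all 168. The median was 0.28 beside 0.09 for all 168. Without TMM scaling 10 of the 14 were positive. Only miR-3957-5p had an unadjusted p under 0.05. Over all 168 miRNAs, the median share of the sum of squares was 25.03% for the week and 35.4% for the replicate number. The larger share was with the number for 99 of 168. A share of either kind also arises without any effect, so its size alone shows none. miR-17-5p had the largest share with the week, 94.5%, followed by unnamed miRNA 111 with 81.1% and miR-150 with 77.1%.

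**Figure D5:**
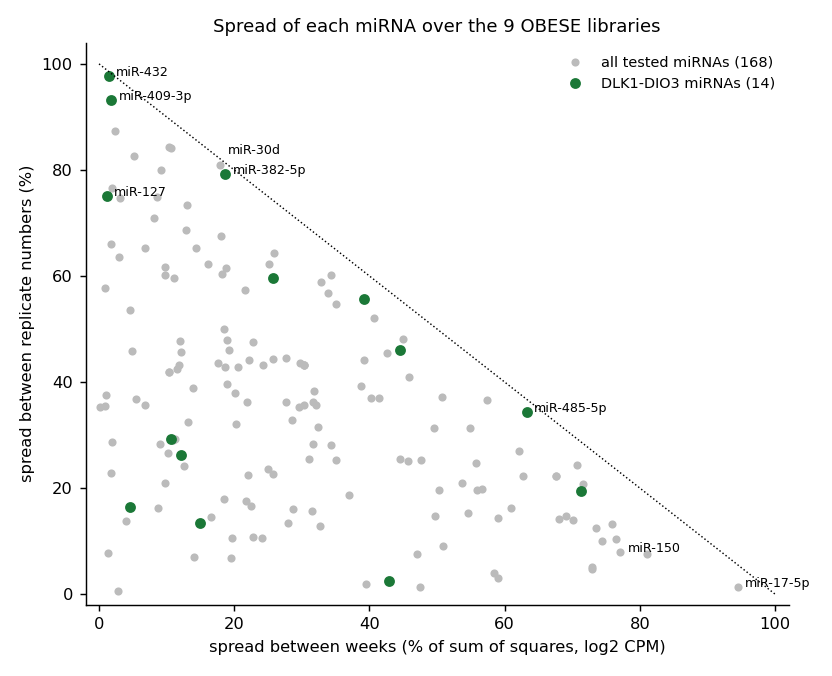
Share of the sum of squares of log2 CPM over the 9 OBESE libraries that lies between weeks (horizontal axis, %) and between replicate numbers (vertical axis, %), with 1 point for each of 168 miRNAs, the 14 DLK1-DIO3 ones in green, and a dotted line where the shares sum to 100%. miR-432 and miR-409-3p sit at the top left, at 97.7% and 93.1% with the replicate number, and miR-17-5p at the bottom right with 94.5% between weeks.

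Whether the course on the high-fat diet differed from that on the standard diet was tested as a difference of changes. It gave 0 calls of 168 (0%) for each pair of weeks in edgeR and limma-voom, and 0 in DESeq2, run without the filter on low counts. In edgeR an unadjusted p under 0.05 was found for 10 (5.95%) from week 7 to week 10, 10 (5.95%) from week 7 to week 14 and 3 (1.79%) from week 10 to week 14. DESeq2 gave 13, 12 and 4, and limma-voom 10, 9 and 2. Without TMM scaling the median difference of changes over all 168 went from 0.06 to -0.10 for week 10 against week 7 and from 0.01 to -0.10 for week 14 against week 7.

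Among the miRNAs with the smallest p in these tests, miR-26b differed by -0.99 (SE 0.39, adjusted p = 0.668) from week 7 to week 10, with CTRL at 1737, 1669 and 2819 CPM and then 2453, 2245 and 3375 CPM. Unnamed miRNA 34 differed by -1.14 (SE 0.45, adjusted p = 0.668). The muscle miRNA miR-133 differed by 3.22 (SE 1.26, adjusted p = 0.668) in the same interval. Its OBESE levels stayed between 7.68 and 41.3 CPM over all weeks, while 1 CTRL library at week 7 reached 127 CPM. From week 7 to week 14 unnamed miRNA 3, which held 1.84% of OBESE counts on average, differed by 0.95 (SE 0.31, adjusted p = 0.286). It was 17285, 12542 and 12106 CPM at week 7 and 21073, 23875 and 14254 CPM at week 14 in OBESE, where the weeks overlapped. In CTRL it was 18343, 25119 and 22640 CPM at week 7 and 13197, 19401 and 15822 CPM at week 14.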

How the data were processed

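Small RNA was sequenced from sheep plasma in 18 libraries, with 1x76 single-end reads per the labels' protocols. The deposited files hold raw counts per miRNA, and the deposited table and the 18 single-library files agreed in every value. Per the submitters' processing notes, cutadapt 4.9, Bowtie 1.3.1 and DESeq2 1.42 were used by the authors. The genome build is not given in the sources used here, nor whether the counts are molecules or reads. All 107 named features matched a RefSeq gene symbol. Counting error alone limits low values: 3 counts correspond to between 2.23 and 5.74 CPM in the OBESE libraries.

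edgeR 4.0.16 (quasi-likelihood test, TMM, 6 groups of diet and week, filterByExpr with a minimum count of 10, 12 residual degrees of freedom) was fitted to all 18 libraries, with p-values adjusted by Benjamini-Hochberg over 168 features and a threshold of 0.05. The 196 features left out held at most 0.0614% of the counts of a library. Levels are CPM with TMM factors, and n = 3 for each mean and SD. The script was tested on simulated data. Exact permutation tests covered library measures (the smallest p is 0.1 for 3 against 3). Same-numbered OBESE libraries deviated together at weeks 14 and 10 (correlations of deviations 0.45 to 0.69), a pairing read from the data since the labels give only numbers. At weeks 14 and 7 the correlations were weaker (0.11 to 0.42, lowest for replicate 2), though each library correlated best with its own number. At weeks 10 and 7 they were -0.02 to 0.39, and replicate 2 of week 10 correlated best with replicate 3 of week 7.

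Alternatives were DESeq2 1.42.0, limma-voom 3.58.1, other scalings, no filter, the OBESE libraries alone, the replicate block and each library left out. Named miRNAs are the 10 most abundant, the 8 with the smallest p in each OBESE comparison, the 4 in each difference between diets, and members of the family and marker lists. The libraries and lists were chosen with earlier results of these data known.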

Additional observations from a re-analysis of the deposited data

How the results depend on the processing

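The group sizes limit what could be called: 3 libraries per week, 1 of them (week 10, replicate 2) setting much of the miR-150 difference. Among single-library omissions, calls numbered 0 for week 10 against week 7, for week 14 against week 7, for the joint test and for every difference between diets. They ranged from 0 to 2 for week 14 against week 10 and from 0 to 4 for both diets. For the miRNAs with the smallest p in each comparison, no fold change changed sign under any setting. Other miRNAs described here were not followed in every setting, and some small fold changes turned. That of miR-16b at week 14 against week 7 went from -0.04 to 0.005 without TMM scaling. Medians of families and lists also changed sign: that of let-7 at week 10 against week 7 ranged from -0.25 to 0.05 and that of DLK1-DIO3 from -0.22 to 0.33. Of 1048 fold changes of the miRNAs with the smallest p, one for each alternative, 988 stayed on their side of the threshold in the same direction, 11 passed it and 49 lost it. All 49 losses were among the 4 calls of both diets, the only ones past the threshold in the fit reported. The other fold changes had no call to lose. Where a cause is not given by the setting itself, the cause was not tested.

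Calls at week 14 against week 10, 0 in the fit reported, were 2 in DESeq2, 2 without a filter on low counts, 1 in the 9 OBESE libraries alone and 3 in those with the replicate block. At week 14 against week 7 the last fit gave 1, and in the joint test it gave 3, as did no filter. For both diets, with 4 calls, there were 0 without TMM, 7 with the replicate block and 0 without the 2 CTRL libraries with low TMM factors.

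Counts at an unadjusted p under 0.05 moved as follows. The fit without a filter covered the 364 features in the files in place of 168. Its counts are therefore out of a larger set and cannot be compared directly with the others. For week 10 against week 7 the 7 became 2 without TMM, 14 without a filter, 11 in the 9 OBESE libraries and 15 in those with the replicate block, and 4 to 8 with 1 library left out. For week 14 against week 7 the 13 became 8 without TMM and 22 with the replicate block in either set of libraries, and 8 to 16 with 1 left out. For week 14 against week 10 the 17 became 10 without TMM and 29 in the 9 OBESE libraries with the block, and 13 to 19 with 1 left out. For the joint test the 16 became 8 and 30 under the same settings, and 6 to 17 with 1 left out. For the difference between diets the 10 at week 10 against week 7 became 3 without TMM, 17 without a filter, 5 without the 2 CTRL libraries and 3 to 12 with 1 left out. The 10 at week 14 against week 7 became 18 with the block and 7 to 15 with 1 left out, and the 3 at week 14 against week 10 became 13 without a filter and 1 to 5 with 1 left out. For both diets the 18 became 11 without TMM and 12 to 22 with 1 left out. Exact p-values for total counts ranged from 0.0357 to 0.446 and for miR-150 from 0.00357 to 0.0143 with 1 OBESE library left out. The block changed no other call.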
